A study of Mus musculus with 4 samples.

Results

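The genes described here encode the hydrolases of the lysosome, the small proteins that assist them, the proteins of the lysosomal membrane and the subunits of the vacuolar proton pump (V-ATPase). They are 38 of the 8251 genes named on the array, measured by 55 of its 12422 tested probe sets. A set of 23 symbols was listed by name and all 23 were measured, and a further 15 were taken because their symbols begin with Atp6v or Atp6ap. Cathepsins were left out. The set was put together with values of the comparison of Hemangioblast with hCD4 arrays already known. Every difference between these groups is therefore given as a description, with its standard error (SE) but without a p-value.

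RNA of cultured mouse cells was hybridised to 4 single-colour arrays, 2 titled Hemangioblast and 2 titled hCD4. All derive from Scl+/hCD4 embryonic stem (ES) cells, in which human CD4 marks cells that express Scl (Tal1), and the study text describes their differentiation in serum as embryoid bodies for 2.75 days. It then describes sorting of Flk-1+Scl+ cells, called hemangioblasts there, and, separately, blast colonies that were picked and pooled from replated embryoid body cells. The sources call the Hemangioblast arrays differentiated hemangioblasts and the hCD4 arrays cultured hCD4 ES cells, whereas the study text names its populations hCD4 and Blast, so that what each group of arrays held is not settled and the groups go by their titles. No genetic or drug treatment separates the groups, the labels do not tell whether 2 arrays with 1 title share a culture, and their spread may be technical. Kdr (Flk-1), a gene of the sort, stood at a scaled intensity (arbitrary units) of 648 and 570.0 on the Hemangioblast arrays, against 1625 and 2003 on the hCD4 arrays, and Tal1 at 391 and 333 on the Hemangioblast arrays, against 597 and 696 on the hCD4 arrays. Both genes of the sort were thus dimmer on both arrays titled Hemangioblast, and Kdr but not Tal1 passed the threshold of the fit.

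Lysosomes are acidic organelles in which proteins, lipids, glycans and nucleic acids delivered by endocytosis, phagocytosis and autophagy are broken down. Their hydrolases work at low pH, which the V-ATPase maintains by pumping protons at the cost of ATP through a cytosolic V1 domain and a membrane V0 domain. Lysosomes are abundant in macrophages, which digest what they engulf. Many lysosomal genes carry in their promoters a palindromic motif around CACGTG, the CLEAR element, which is bound by TFEB and related factors.

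Lysosomal genes were mostly brighter on the Hemangioblast arrays. The difference of the groups (log2 of the scaled intensity plus 16, Hemangioblast minus hCD4) was above 0 for 35 of the 38 genes, with a median of 0.54, whereas the median over all 8251 genes was 0.02. Differences given from here on are on this scale, which understates the change of dim genes. By class the median difference was 0.78 for 13 hydrolases, 0.58 for 4 soluble cofactors, 0.77 for 6 membrane proteins and 0.42 for 15 pump subunits. Past an adjusted p of 0.05 in a limma fit over all probe sets were 9 members higher on the Hemangioblast arrays, where 3.39% of all genes were called higher, and 0 members lower, where 1.96% were called lower. Both Hemangioblast arrays lay above both hCD4 arrays for 28 members (24.5% of all genes) and below both for 1 (22.0% of all genes). In RNA of whole cell samples, fewer cells of a type and less RNA per cell cannot be told apart. The count of 9 was 5 without Hemangioblast replicate 2, 2 without hCD4 replicate 1 and 1 without hCD4 replicate 2, and it was 1 without the intensity trend of the variance model and 5 without scaling of the arrays.

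**Figure D1:**
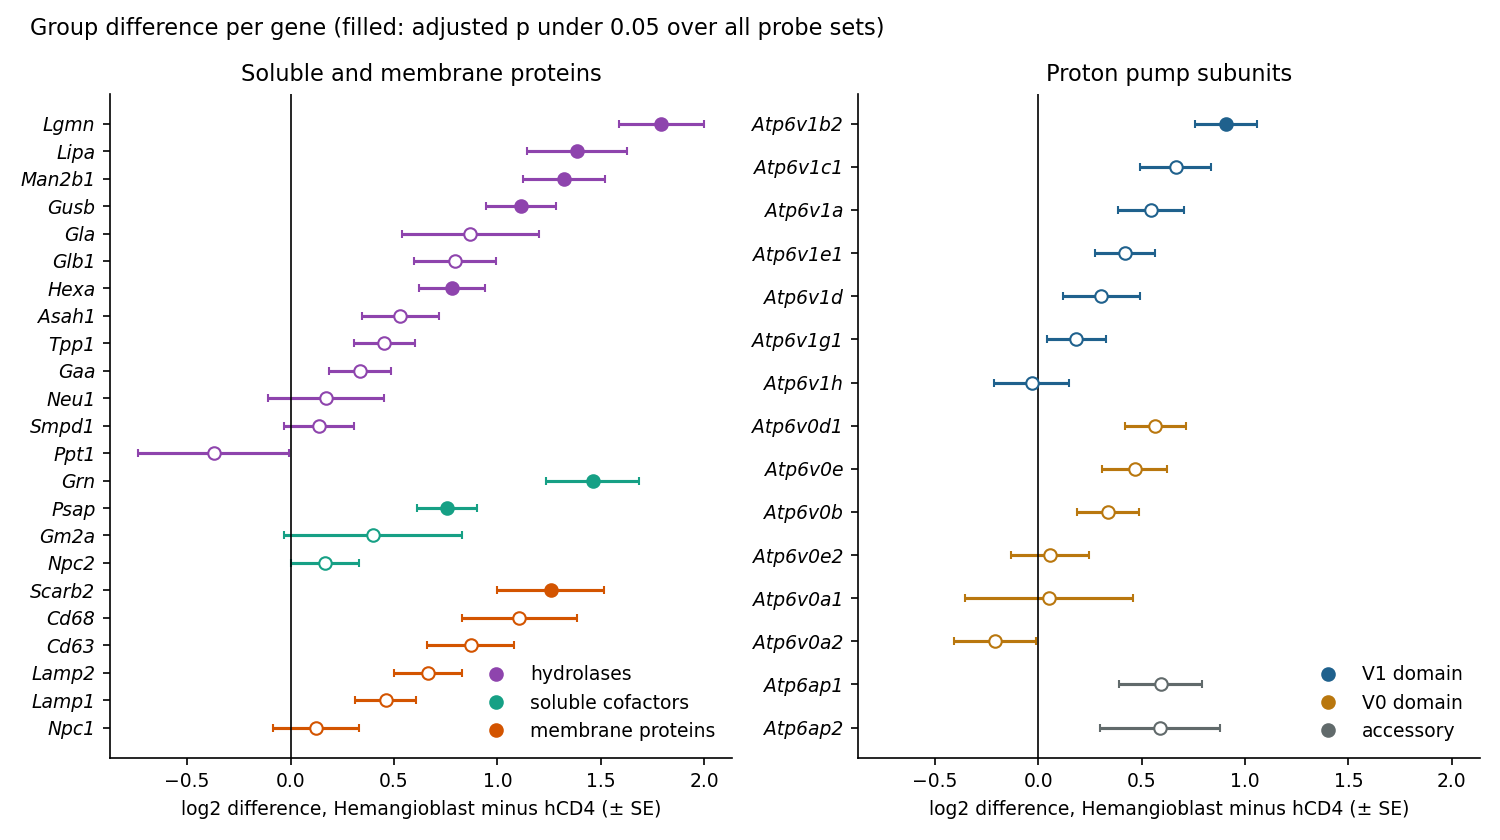
Difference between the groups for each of the 38 genes, on the log2 scale (Hemangioblast minus hCD4, horizontal axis), with bars of 1 SE from a fit with 2 arrays in each group; filled points passed an adjusted p of 0.05 over all probe sets. Legumain (Lgmn) lies farthest to the right at 1.79 and Ppt1 farthest to the left at -0.37, and 9 points are filled.

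**Figure D2:**
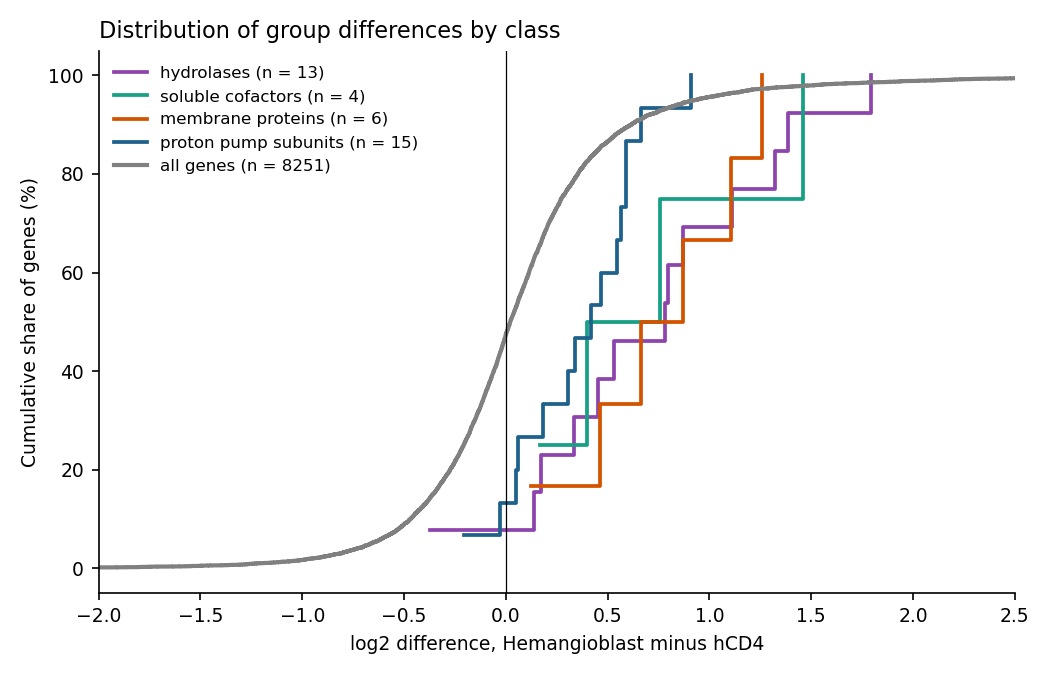
Cumulative share of genes (vertical axis, percent) below each log2 difference (horizontal axis, Hemangioblast minus hCD4) for the 4 classes and for all 8251 genes; all genes run from -4.81 to 5.44, beyond the axis. The curves of the 4 classes lie to the right of that of all genes over most of their length, and the pump subunits, with a median of 0.42, lie nearest to it.

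The promoter windows of the members, from RefSeq (GRCm38.p6, 250 bases before to 50 after a start site), were searched for CACGTG, for the longer TCACGTG and TCACGTGA and for the full CLEAR palindrome, on both strands. Windows were found for 31 of the 38 genes, and not for Npc1, Asah1, Atp6v0a2, Atp6v1b2, Atp6v1c1, Atp6v1g1 and Atp6v1h. Of the 31, 9 (29.0%) held CACGTG, and all 9 held it as TCACGTG, which contains CACGTG. Among all 27025 genes with windows 8.09% held CACGTG and 4.29% TCACGTG, and among the 6577 of them on the array 11.4% and 6.78%. The CLEAR element is known as one of lysosomal genes, so a higher share among the members is not an independent result. The palindrome TCACGTGA, which contains TCACGTG, was in the windows of 4 members (12.9%), against 1.92% of the genes on the array, and the full CLEAR palindrome, which contains TCACGTGA, was in 0 of 31, against 0.715%. Windows of Lamp1, which holds 4 copies, of Lgmn, the gene with the largest difference, and of the 4 members with TCACGTGA are printed. They run 5′ to 3′ on the strand of the gene, with each TCACGTG or its reverse complement CACGTGA in capitals.
Lamp1: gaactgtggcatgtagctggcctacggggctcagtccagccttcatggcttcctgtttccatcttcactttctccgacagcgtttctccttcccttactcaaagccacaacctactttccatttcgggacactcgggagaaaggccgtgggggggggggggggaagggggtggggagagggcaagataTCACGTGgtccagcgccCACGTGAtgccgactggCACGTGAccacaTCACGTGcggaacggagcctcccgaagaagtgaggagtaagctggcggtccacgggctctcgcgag
Lgmn: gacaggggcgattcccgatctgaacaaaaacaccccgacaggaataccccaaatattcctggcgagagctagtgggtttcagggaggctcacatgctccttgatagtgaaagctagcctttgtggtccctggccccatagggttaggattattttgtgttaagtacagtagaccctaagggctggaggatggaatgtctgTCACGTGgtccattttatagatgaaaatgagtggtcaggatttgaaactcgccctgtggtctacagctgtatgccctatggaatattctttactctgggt
Gla: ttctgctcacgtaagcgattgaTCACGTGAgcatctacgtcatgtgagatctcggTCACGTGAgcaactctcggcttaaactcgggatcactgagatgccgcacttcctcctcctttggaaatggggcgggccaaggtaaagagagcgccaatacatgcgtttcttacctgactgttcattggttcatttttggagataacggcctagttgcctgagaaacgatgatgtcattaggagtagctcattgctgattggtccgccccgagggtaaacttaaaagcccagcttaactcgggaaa
Atp6v1a: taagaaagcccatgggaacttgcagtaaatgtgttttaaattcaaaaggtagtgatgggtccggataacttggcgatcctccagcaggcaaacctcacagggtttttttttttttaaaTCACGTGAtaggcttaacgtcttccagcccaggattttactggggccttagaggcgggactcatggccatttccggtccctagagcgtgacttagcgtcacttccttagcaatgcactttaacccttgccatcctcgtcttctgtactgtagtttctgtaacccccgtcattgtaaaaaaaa
Atp6v0d1: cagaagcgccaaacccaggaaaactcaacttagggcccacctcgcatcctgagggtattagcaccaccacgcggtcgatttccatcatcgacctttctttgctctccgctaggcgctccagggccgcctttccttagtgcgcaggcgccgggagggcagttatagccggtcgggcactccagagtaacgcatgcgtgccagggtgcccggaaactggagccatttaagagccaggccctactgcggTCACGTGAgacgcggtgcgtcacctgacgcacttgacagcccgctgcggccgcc
Atp6v0e: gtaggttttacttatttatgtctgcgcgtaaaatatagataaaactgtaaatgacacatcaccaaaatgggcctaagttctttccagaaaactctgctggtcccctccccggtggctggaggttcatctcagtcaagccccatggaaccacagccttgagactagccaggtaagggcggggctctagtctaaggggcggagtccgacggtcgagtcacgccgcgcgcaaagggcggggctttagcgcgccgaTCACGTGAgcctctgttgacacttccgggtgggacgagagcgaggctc

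These windows lie at chr8:13158911-13159210 (plus strand), chr12:102439043-102439342 (minus), chrX:134600956-134601255 (minus), chr16:44139210-44139509 (minus), chr8:105566015-105566314 (minus) and chr17:26676146-26676445 (plus). Counted from the start site, the first base of CACGTG was at -61, -45, -28 and -15 in Lamp1 and at -3 and 4 in Atp6v0d1 and Atp6v0e. Lgmn has a second listed start site, whose window held no TCACGTG. The other 3 members with TCACGTG were Glb1, Gaa and Atp6v0b. The 9 genes with the motif had a median log2 difference of 0.55 (0.34 to 1.79) and the 22 without it one of 0.59 (-0.37 to 1.46). Of the 8 called members that have a window, 1 (Lgmn) held the motif and 7 did not, where 3.39% of all genes were called higher. All 9 genes with the motif had Hemangioblast arrays above both hCD4 arrays, as had 15 of the 22 without it. Over all genes this share was 24.5%. The members were chosen with this comparison known, and a link of the motif with the difference was not tested. A match of letters is not a measured binding site.

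Among the hydrolases, 5 of 13 passed the threshold and all 5 were higher on the Hemangioblast arrays, beside 3.39% of all genes called higher. Lgmn encodes legumain, a protease that cuts after asparagine. Its scaled intensity was 666 and 799 on the Hemangioblast arrays, against 222 and 178 on the hCD4 arrays. With 16 added, the lower Hemangioblast value was 2.87 times the higher hCD4 value, and the difference was 1.79 (SE 0.21), or 3.47-fold. Lgmn was the one member past the threshold under all 13 other settings tried. Lipa encodes the acid lipase that frees cholesterol and fatty acids from lipoproteins taken up by the cell. It was at 314 and 418 on the Hemangioblast arrays, against 128 and 130.3 on the hCD4 arrays, a difference of 1.38 (SE 0.24). Its hCD4 arrays almost coincided and its Hemangioblast arrays were spread more widely.

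Enzymes that trim sugars from glycoproteins and glycosaminoglycans were also among those past the threshold. Man2b1, the lysosomal alpha-mannosidase, was at 752 and 1031 on the Hemangioblast arrays, against 353 and 332 on the hCD4 arrays, a difference of 1.32 (SE 0.20). Gusb, the beta-glucuronidase, was at 818 and 957 on the Hemangioblast arrays, against 405 and 396 on the hCD4 arrays, a difference of 1.11 (SE 0.17). A further probe set of Man2b1 overlapped between groups (0.27, SE 0.29). With 16 added, the dimmer Hemangioblast array was 2.08 times (Man2b1) and 1.98 times (Gusb) as bright as the brighter hCD4 array. Hexa, the alpha subunit of the beta-hexosaminidase that degrades ganglioside, was at 789.7 and 792 on the Hemangioblast arrays, against 458 and 448 on the hCD4 arrays. Replicates of Hexa lay within a few percent of each other, and the difference was 0.78 (SE 0.16). A further, dim probe set of Hexa overlapped between groups (0.21, SE 0.36).

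The 8 other hydrolases did not pass, and their groups overlapped for 3. Glb1, the beta-galactosidase, was at 549 and 522 on the Hemangioblast arrays, against 266 and 342 on the hCD4 arrays, a difference of 0.80 (SE 0.20). Gla, the alpha-galactosidase, was dim, at 61.7 and 72.9 on the Hemangioblast arrays, against 28.1 and 30.9 on the hCD4 arrays, with a difference of 0.87 (SE 0.33). Without overlap but with smaller differences came the acid ceramidase Asah1 (0.53, SE 0.19), the tripeptidyl peptidase Tpp1 (0.45, SE 0.15) and the glycogen-degrading alpha-glucosidase Gaa (0.34, SE 0.15). The sialidase Neu1 and the acid sphingomyelinase Smpd1 overlapped between groups. Smpd1, nearest to 0 in its class, was at 1193 and 1429 on the Hemangioblast arrays, against 1077 and 1306 on the hCD4 arrays (0.14, SE 0.17), and Neu1 differed by 0.17 (SE 0.28). Ppt1, which removes palmitate from proteins, was the one hydrolase with a difference below 0, at 35.3 and 21.0 on the Hemangioblast arrays, against 48.1 and 33.6 on the hCD4 arrays (-0.37, SE 0.36). Its mean was under 50, and its groups overlapped.

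**Figure D3:**
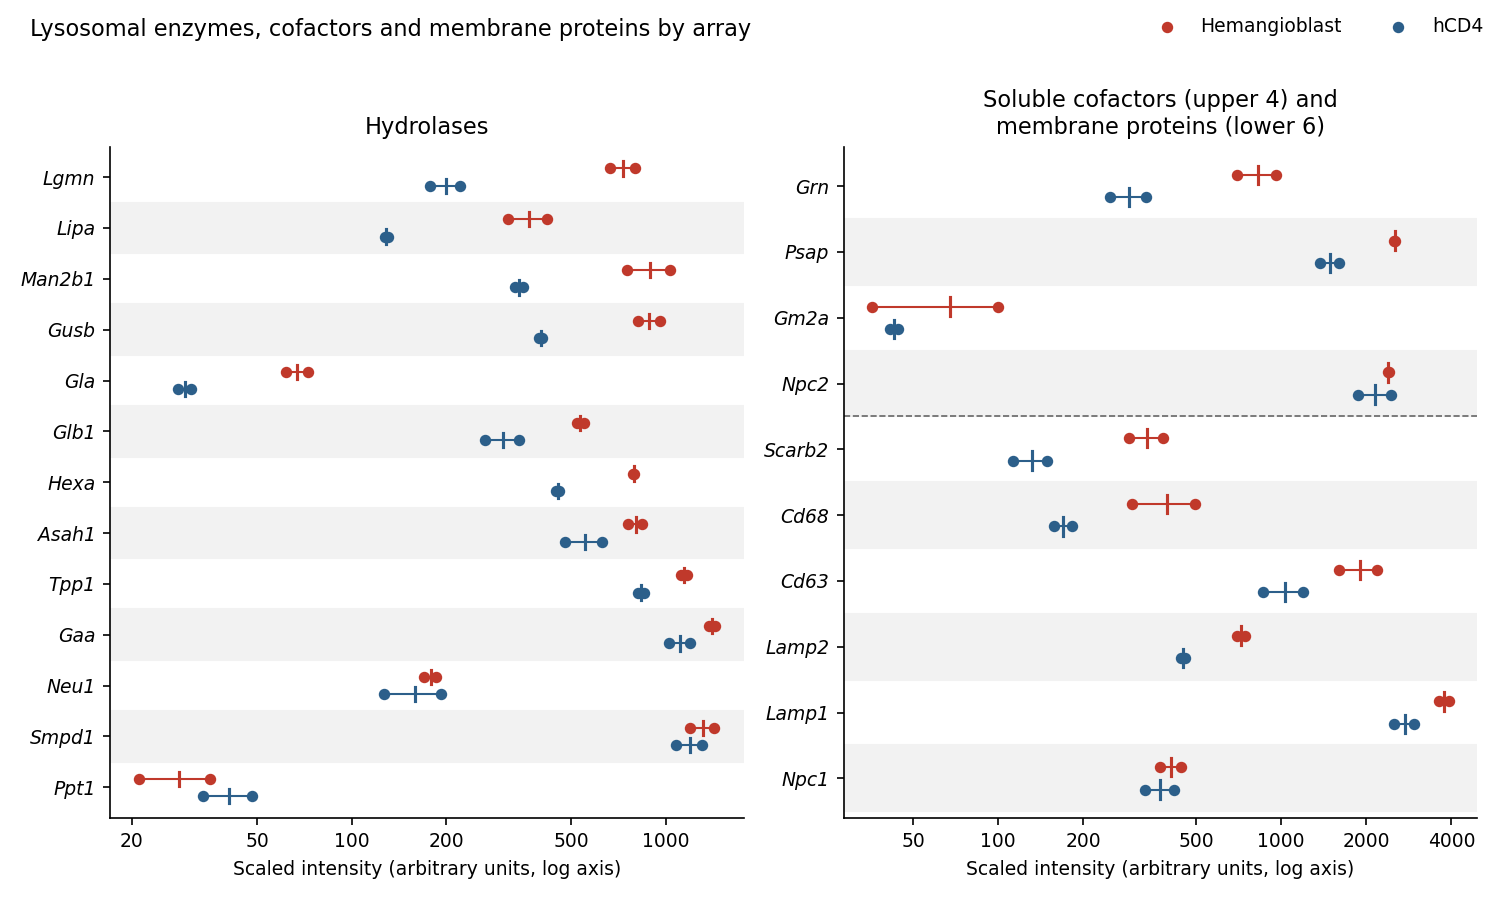
Scaled intensity (arbitrary units, log axis) of each hydrolase, soluble cofactor and membrane protein gene on each array; points are single arrays, the short vertical tick is the mean of the 2 arrays of a group and the line joins them. Lgmn has its Hemangioblast arrays at 666 and 799 and its hCD4 arrays at 222 and 178, while the groups of Neu1, Smpd1, Ppt1, Gm2a, Npc2 and Npc1 overlap; levels of different genes are not comparable.

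The soluble cofactors carry lipids or assist enzymes without cutting a substrate themselves. Grn encodes progranulin, which is delivered to lysosomes and processed there to granulins. It was at 699 and 963 on the Hemangioblast arrays, against 334 and 248 on the hCD4 arrays, a difference of 1.46 (SE 0.23). Its other probe set gave 0.72 (SE 0.23) and did not pass. Psap encodes prosaposin, the precursor of the saposins that lift sphingolipids towards their hydrolases. It was at 2509 and 2530.0 on the Hemangioblast arrays, against 1374 and 1606 on the hCD4 arrays, a difference of 0.76 (SE 0.15). A second probe set of Psap was also past the threshold (1.20, SE 0.21) and another did not pass (0.46, SE 0.46). Gm2a, the ganglioside activator, and Npc2, which hands cholesterol to Npc1, overlapped between groups. Gm2a was at 35.9 and 99.6 on the Hemangioblast arrays, against 41.4 and 44.1 on the hCD4 arrays, and 1 Hemangioblast array alone stood above the hCD4 arrays (difference 0.40, SE 0.43). Npc2 was at 2408 and 2383 on the Hemangioblast arrays, against 1864 and 2443 on the hCD4 arrays (0.17, SE 0.16).

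Among the membrane proteins, 5 of 6 had Hemangioblast arrays above both hCD4 arrays, beside 24.5% of all genes, and 1 passed the threshold, beside 3.39%. That gene, Scarb2, encodes LIMP-2, which carries glucocerebrosidase to the lysosome. It was at 291 and 382 on the Hemangioblast arrays, against 149 and 113 on the hCD4 arrays, a difference of 1.26 (SE 0.26). It kept its call under settings that use all 4 arrays other than no scaling and no intensity trend, and lost it whichever array was left out. Cd68, a sialomucin of macrophage lysosomes, was at 297 and 495 on the Hemangioblast arrays, against 182 and 158 on the hCD4 arrays. The 2 Hemangioblast arrays differed by more than the hCD4 arrays did, and the difference of 1.11 (SE 0.28) missed the threshold. A second, dim probe set of Cd68 had the opposite sign (-0.32, SE 0.35).

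Cd63, a tetraspanin of late endosomes and lysosomes, was at 1607 and 2182 on the Hemangioblast arrays, against 1194 and 865 on the hCD4 arrays, a difference of 0.87 (SE 0.21). The LAMP proteins make up much of the lysosome's inner glycoprotein coat. Lamp2 was at 696 and 747 on the Hemangioblast arrays, against 456 and 441 on the hCD4 arrays (0.67, SE 0.16). Its other probe set passed the threshold, with 445 and 596 on the Hemangioblast arrays, against 177 and 235 on the hCD4 arrays (1.27, SE 0.24). Both probe sets separated the groups, and the one that represents the gene by its higher mean did not pass. Lamp1, whose window held the most motif copies, was at 3906 and 3602 on the Hemangioblast arrays, against 2954 and 2507 on the hCD4 arrays (0.46, SE 0.15). Npc1, the cholesterol exporter, was at 373 and 443 on the Hemangioblast arrays, against 419 and 330.2 on the hCD4 arrays and overlapped between groups (0.12, SE 0.21). Thus the partners Npc1 and Npc2 were the members of their classes nearest to 0.

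The proton pump had the smallest median difference of the classes, with 1 of 15 subunits past the threshold, beside 3.39% of all genes called higher, and 11 higher without overlap, beside 24.5% of all genes. The difference between classes was not tested. In the V1 domain, which hydrolyses ATP, subunits B, C and A had the widest differences. Atp6v1b2, the B2 isoform, was at 2331 and 1958 on the Hemangioblast arrays, against 1129.6 and 1132 on the hCD4 arrays, a difference of 0.91 (SE 0.15). Its hCD4 arrays were equal to within 0.01 on the log2 scale, and its second probe set overlapped between groups (1.05, SE 0.50). Atp6v1a, the A subunit, was at 1829.6 and 1512 on the Hemangioblast arrays, against 1204 and 1069 on the hCD4 arrays (0.55, SE 0.16). Its 2 other probe sets gave 0.47 (SE 0.23) and 0.14 (SE 0.25). Neither they nor the first passed. Atp6v1c1, a subunit that holds the domains together, was at 568 and 602 on the Hemangioblast arrays, against 363 and 362 on the hCD4 arrays (0.67, SE 0.17).

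The stalk subunits of V1 had smaller differences, 0.42 (SE 0.14) for Atp6v1e1, 0.31 (SE 0.19) for Atp6v1d and 0.18 (SE 0.14) for Atp6v1g1, each without overlap. Atp6v1h, a regulatory subunit, overlapped at 676 and 633 on the Hemangioblast arrays, against 589.9 and 758 on the hCD4 arrays (-0.03, SE 0.18). The median difference was 0.42 over the 7 V1 subunits and 0.20 over the 6 V0 subunits. In the V0 domain, Atp6v0d1, which couples the rotor to the proton ring, was at 1131 and 1138 on the Hemangioblast arrays, against 776 and 746 on the hCD4 arrays (0.57, SE 0.15). Its replicates were close together and the groups apart, but it did not pass. Atp6v0b, a proteolipid of the ring, differed by 0.34 (SE 0.15) without overlap.

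Several V0 subunits come as isoforms, each from a gene of its own. Of the e subunits, Atp6v0e was at 855 and 823 on the Hemangioblast arrays, against 632 and 575 on the hCD4 arrays (0.47, SE 0.16) and Atp6v0e2 at 753 and 939 on the Hemangioblast arrays, against 714 and 912 on the hCD4 arrays (0.06, SE 0.19). The groups were apart for Atp6v0e and overlapped for Atp6v0e2. Of the a subunits, which form the proton path, Atp6v0a1 was at 149 and 414 on the Hemangioblast arrays, against 222 and 262 on the hCD4 arrays (0.05, SE 0.41). Atp6v0a2 was at 344 and 446 on the Hemangioblast arrays, against 448 and 462 on the hCD4 arrays (-0.21, SE 0.20), and its 2 other probe sets had the opposite sign, at 0.25 (SE 0.19) and 0.41 (SE 0.26). It was the one member whose representative probe set lay lower on both Hemangioblast arrays. The gene of another a isoform, Tcirg1, which serves the lysosomes of osteoclasts and macrophages, lies outside the symbol rule and is given for this comparison. It was at 514 and 559 on the Hemangioblast arrays, against 223 and 179 on the hCD4 arrays, a difference of 1.36 (SE 0.21) that passed the threshold. By their representative probe sets the a isoforms thus ran from -0.21 to 1.36, and the difference between isoforms was not tested. The lower end depends on the probe set, as the Atp6v0a2 probe set at 0.25 lay higher on the Hemangioblast arrays without overlap. The accessory proteins Atp6ap1, which assists assembly of V0, and Atp6ap2, the prorenin receptor, differed by 0.59 (SE 0.20) and 0.59 (SE 0.29), both without overlap.

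**Figure D4:**
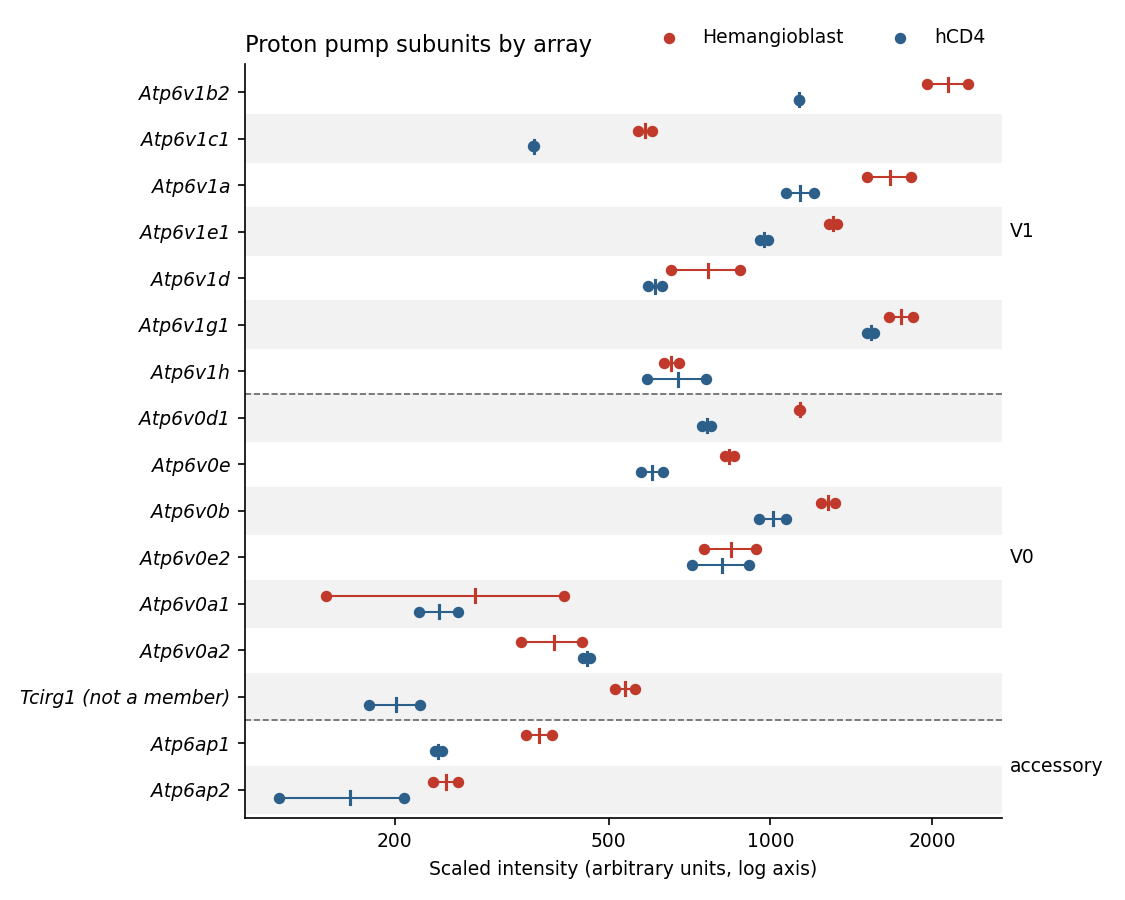
Scaled intensity (arbitrary units, log axis) of each V-ATPase subunit gene and of Tcirg1 on each array, with V1, V0 and accessory subunits separated by dashed lines; points are single arrays and ticks are means of 2. The groups are farthest apart for Tcirg1 (514 and 559 on the Hemangioblast arrays, against 223 and 179 on the hCD4 arrays), while those of Atp6v0a1, Atp6v0e2 and Atp6v1h overlap.

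Lists of other lysosomal and related genes, with sorting genes, regulators and tetraspanins, were written with earlier results known and without cathepsins. Of their 81 symbols 54 were measured. Of these, 7 passed the threshold higher and 0 lower, beside 3.39% and 1.96% of all genes, and their median difference was 0.20. The 14 other hydrolases had a median of 0.36, and 2 of them passed. These were the fucosidase Fuca1, at 313 and 414 on the Hemangioblast arrays, against 137 and 88.0 on the hCD4 arrays (1.58, SE 0.28), and the lysozyme Lyz2, a gene of myeloid cells, at 249 and 451 on the Hemangioblast arrays, against 19.8 and 38.2 on the hCD4 arrays, where its mean was under 50. Of 16 other membrane proteins, 4 passed while the median was -0.05. Besides Tcirg1 these were Laptm5, a lysosomal protein of blood cells (2.29, SE 0.19), Slc11a1, the metal transporter of phagosomes (1.56, SE 0.30), and the tetraspanin Cd9 (1.18, SE 0.20). Not past the threshold and with values below 0 were Laptm4a and Laptm4b, relatives of Laptm5 with wider expression, at -0.67 (SE 0.26) and -0.67 (SE 0.17).

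The machinery that delivers hydrolases gave 0 of 15 genes past the threshold, where 3.39% of all genes were called higher and 1.96% lower, so that this count does not set the list apart from all genes. Its median was 0.13, and 7 of the 15 lay higher and 4 lower without overlap, beside 24.5% and 22.0% of all genes. The mannose 6-phosphate receptors that sort the enzymes had values below 0. Igf2r, the larger of them, was at 150.2 and 153 on the Hemangioblast arrays, against 247 and 182 on the hCD4 arrays (-0.44, SE 0.26), and M6pr, the smaller, was dim at 27.2 and 25.2 on the Hemangioblast arrays, against 34.0 and 69.4 on the hCD4 arrays (-0.63, SE 0.38). Both are among those 4. Of 9 regulators, 1 passed, Rragc, a GTPase that recruits the growth kinase mTORC1 to lysosomes, at 1695 and 1680.2 on the Hemangioblast arrays, against 952 and 1078 on the hCD4 arrays (0.73, SE 0.15). Tfeb, the factor of the CLEAR element, was at 169 and 216 on the Hemangioblast arrays, against 144 and 163 on the hCD4 arrays (0.29, SE 0.26), and the related Mitf was dim (0.58, SE 0.38). Neither passed.

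Markers of blood cells moved with the same comparison. Over all genes 3.39% were called higher and 1.96% lower, shares to set beside each count of markers. Scaled intensity of 15 macrophage and myeloid markers summed to 7226 and 8669.8 on the Hemangioblast arrays, against 1201 and 1519 on the hCD4 arrays. Lyz2 is in this list and in that of the other hydrolases. Of the 15, 9 passed higher and 0 lower. Among those with the largest differences were Ptprc (CD45) and Adgre1 (F4/80). Ptprc was at 462 and 545 on the Hemangioblast arrays, against 28.5 and 2.67 on the hCD4 arrays. Adgre1 was at 281 and 426 on the Hemangioblast arrays, against 13.1 and 4.14 on the hCD4 arrays. Without overlap, 12 of the 15 lay higher, beside 24.5% of all genes. Itgam, Itgb2 and Msr1 were among these 12 but did not pass, and Fcgr3, Cx3cr1 and Mrc1 overlapped between groups. Of 8 erythroid markers, 6 passed higher, with sums of 37733 and 40329 on the Hemangioblast arrays, against 13173 and 14008 on the hCD4 arrays. Of 11 markers of visceral endoderm, an early tissue rich in lysosomes, 0 passed. Without overlap, 2 lay higher and 3 lower, beside 24.5% and 22.0% of all genes. Dab2 had the largest difference upward (0.99, SE 0.23) and Cubn downward (-0.88, SE 0.44). Cubn was at 73.7 and 63.7 on the Hemangioblast arrays, against 231 and 82.3 on the hCD4 arrays, so 1 hCD4 array carried most of its difference. The sums were 1123 and 1174 on the Hemangioblast arrays, against 1211 and 1137 on the hCD4 arrays. They do not show differences of opposite sign between single markers. Of 7 pluripotent and epiblast markers, 2 passed lower, Pou5f1 and Dppa5a. With these, 5 lay lower without overlap, beside 22.0% of all genes, and Nanog and Sox2 overlapped. The sums of the 7 were 794.5 and 751 on the Hemangioblast arrays, against 3756 and 1833 on the hCD4 arrays. Of 5 endothelial markers 1 (Tie1) passed higher. Pecam1 also lay higher without overlap (0.77, SE 0.25), Cdh5 (-0.53, SE 0.22) and Tek (-0.39, SE 0.24) lay lower without overlap, and Eng overlapped (0.19, SE 0.16). On each array 1.16% to 1.27% of the deposited values are exactly 1, and the markers listed at 1 were Fcer1g on hCD4 replicate 1, Apoa1 on Hemangioblast replicate 1 and both hCD4 arrays, and Rbp4 on Hemangioblast replicate 2 and hCD4 replicate 1. The part of these cell types in the lysosomal values was not tested.

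The replicates of the Hemangioblast group also differed from each other at these genes. Of the 38 members, 27 (71.1%) were brighter on Hemangioblast replicate 2 than on replicate 1, with a median log2 difference of -0.09 (replicate 1 minus 2). Of the 9 past the threshold it was 8, with a median of -0.26. Over all genes 55.3% were brighter on replicate 2, with a median of -0.04. The size was -0.71 for Cd68, -0.45 for Grn, -0.45 for Man2b1 and -0.39 for Lipa, while Psap (-0.01) and Atp6v0d1 (-0.01) scarcely differed. Among the macrophage and myeloid markers, 12 of 15 were brighter on the same array, with a median of -0.37. Between the hCD4 replicates, 18 of the 38 members were brighter on replicate 2, with a median of 0.02. Of the 9 past the threshold it was 3, with a median of 0.03. Of the 15 macrophage and myeloid markers it was 11, with a median of -0.27. Some of these markers were near the floor on the hCD4 arrays, such as Ptprc (28.5 and 2.67) and Adgre1 (13.1 and 4.14). Whether markers and members shifted together between replicates was not tested. With 2 arrays in a group, the differences between replicates have no replicate check of their own.

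The median intensity of the arrays before scaling was 166 to 198, the 3′ to 5′ ratio of the Gapdh control was 1.03 to 1.33 and that of actin 1.12 to 1.63, both highest on Hemangioblast replicate 1. The part of RNA quality in the results was not tested. The number of arrays limits the precision, with a median SE of 0.19 over the 38 genes. Of 38 members, 36 had a mean scaled intensity of at least 50, the 2 dimmer ones being Gla and Ppt1. More than 1 probe set was present for 14 members. Counting all 55 probe sets of the members, 11 passed higher, beside 2.91% of all probe sets, and 0 lower, beside 1.56%. Of the 17 further probe sets, 12 had the sign of the representative one and 5 the opposite sign, in Smpd1, Cd68, Atp6ap1 and Atp6v0a2.

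**Figure D5:**
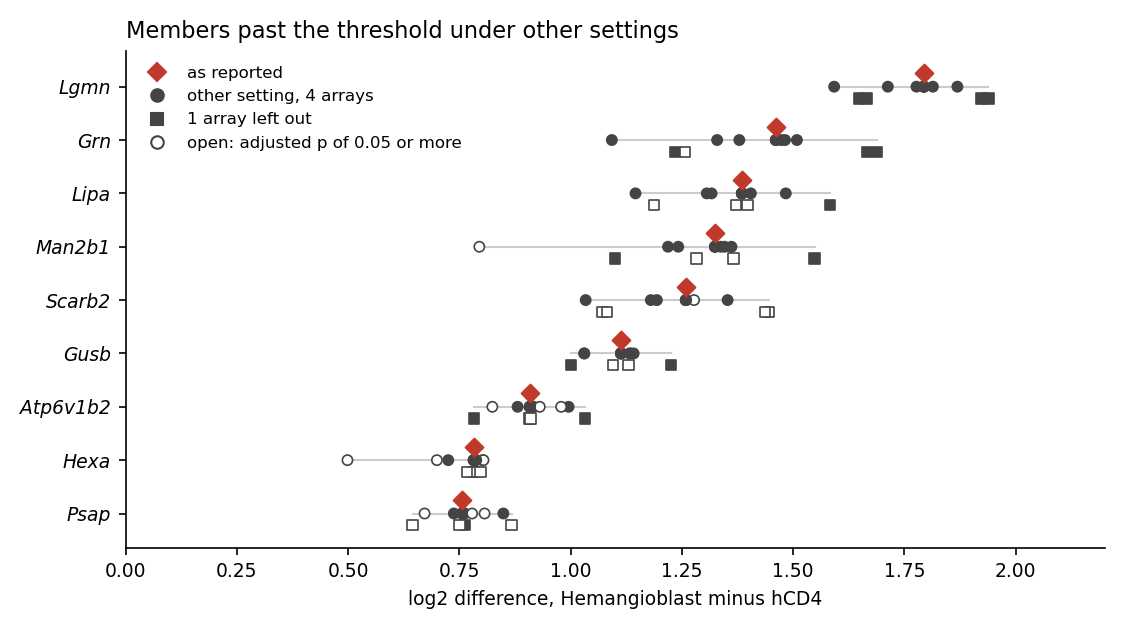
Log2 difference (horizontal axis, Hemangioblast minus hCD4) of the 9 members past the threshold, as reported (diamonds), under 9 other settings with all 4 arrays (circles) and with 1 array left out (squares); open symbols have an adjusted p of 0.05 or more. All points lie above 0, those of Lgmn are all filled, and open symbols occur for the other 8 genes.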

How the data were processed

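The deposited series table holds 1 linear signal intensity for each of 12488 probe sets on each of the 4 arrays, and all 4 value columns were used. The sources used here do not name the authors' array software or background correction. Per the labels' protocols, 20 ug of TRIzol RNA was labelled without amplification. The 66 control probe sets were left out, each array was scaled to a common mean without the outer 2% at each end, and 16 was added before log2. Groups follow the array titles.

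Differences were fitted with limma 3.58.1 (R 4.3.3) with an intensity trend, and p-values were adjusted by Benjamini and Hochberg over 12422 probe sets. The fit was also run on simulated arrays with independent noise. These carry no array-wide shifts, so the simulation cannot tell how such shifts affect the calls. Replicate numbers were not used as pairs. The correlation of same-numbered arrays' deviations was -0.00781 across probe sets. A gene is represented by its probe set of highest mean log2 value. Of the probe sets, 10833 carry 1 gene symbol in the platform annotation, 396 several and 1193 none. All members are described, and genes outside the set are named where they passed the threshold or their role bears on the members. Members and lists were chosen with earlier results of these data known. Alternatives changed the added constant, scaling, dim filter, variance trend, probe set rule, replicate block and arrays included.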

Additional observations from a re-analysis of the deposited data

How the results depend on the processing

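Of the 38 genes, 28 had differences above 0 under every other setting that gave them a value, Ppt1 was below 0 under each of its own, and 9 took either sign. There were 13 such settings, 12 for Gla and Ppt1, which the dim filter drops. Lgmn alone passed the threshold under all 13. Glb1, Lamp2, Cd63 and Cd68 passed under at least 1 other setting. The count of members past the threshold, 9 as reported, was 5 without scaling, 1 without the intensity trend and 1 to 9 with 1 array left out. It was 6 with median scaling or with the mean of all probe sets, 11 with 1 added, 9 with 64 added or quantile scaling and 13 without dim probe sets, and 0 members passed lower under any of them. The count of probe sets past the threshold, 556 as reported, was 272 without scaling, 883 without dim probe sets, 220 without the trend and 219 to 517 with 1 array left out. With a replicate block 710 probe sets and 9 members passed. The block is not backed by a pairing of the arrays. The median log2 difference of the hydrolases was 0.50 with 64 added, 0.64 with quantile scaling, 0.53 with the mean of all probe sets and 0.62 to 0.77 with 1 array left out. That of the cofactors was 0.46 to 0.87 and that of the membrane proteins 0.63 to 0.90 with 1 array left out. That of the pump was 0.34 with median scaling, 0.47 with quantile scaling, 0.34 with the mean of all probe sets and 0.40 to 0.49 with 1 array left out. Median scaling moved the median of all probe sets to -0.03, against 0.04 as reported. The cause of these shifts was not tested.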
